A study of Homo sapiens with 4 samples.

Results

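The IGFBP5-positive cells described here were 459 of the 4239 cells kept from the library of RES-B, an enzalutamide-resistant derivative of the human prostate cancer line LNCaP. They were chosen by the readout itself. A cell was kept with at least 1500 detected genes, at least 5000 UMIs (molecular tags that count captured RNA molecules) and under 20% of its UMIs from mitochondrial genes, and it was counted as IGFBP5-positive when it held 3 or more UMIs of IGFBP5 (ENSG00000115461). The 3203 cells of the same library with 0 IGFBP5 UMIs served for comparison, and 577 cells with 1 or 2 UMIs lay between both groups. Single-cell RNA-seq of sorted living cells had been performed on 4 libraries with 17233 barcodes, of which 15452 passed the same limits. They were parental LNCaP in the solvent DMSO (0.1%, 48 h), LNCaP exposed to 10 μM of the anti-androgen enzalutamide for 48 h (LNCaP-ENZ48), and both resistant lines, RES-A and RES-B, each maintained in 10 μM enzalutamide. Long exposure to an anti-androgen had given rise to both lines, with enzalutamide at stepwise higher doses for RES-A and the related compound RD-162 for RES-B. Each group was a single library of a single derived line, so differences had no replicate check, no test was run, and every interval below is an exact 95% interval that covers counting error only.

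IGFBP5 encodes a secreted protein that binds the insulin-like growth factors IGF1 and IGF2 with high affinity and so sets how much of them reaches the receptor IGF1R, and it also binds the extracellular matrix. In the prostate the gene is known mainly from stromal cells, and its RNA rises in the rodent prostate after castration. KLK3, which encodes the prostate-specific antigen, is a classical gene switched on by androgen in luminal cells.

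The gene that chose the cells and KLK3, whose level was among the most different in them, are shown by the 250 bases before their start sites, from the RefSeq annotation of GRCh38.p14. The IGFBP5 stretch is chr2:216695550-216695799 on the minus strand and the KLK3 stretch is chr19:50854665-50854914 on the plus strand. Capitals mark matches to AGAACA or its reverse complement TGTTCT, the 6-letter unit that androgen response elements repeat.
IGFBP5: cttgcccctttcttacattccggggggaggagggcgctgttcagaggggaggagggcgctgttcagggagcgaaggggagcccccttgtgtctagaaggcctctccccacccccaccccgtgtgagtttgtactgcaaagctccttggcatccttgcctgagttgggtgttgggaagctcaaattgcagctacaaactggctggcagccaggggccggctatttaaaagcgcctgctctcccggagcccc
KLK3: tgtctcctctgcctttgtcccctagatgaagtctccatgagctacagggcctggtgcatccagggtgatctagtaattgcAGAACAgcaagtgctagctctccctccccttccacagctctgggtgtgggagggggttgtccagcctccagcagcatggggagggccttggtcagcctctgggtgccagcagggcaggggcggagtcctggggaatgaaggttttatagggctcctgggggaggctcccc
The KLK3 stretch held 1 match, beginning 170 bases before the start, and the IGFBP5 stretch held 0. Of 35116 promoters of this length in the table, 12.4% held at least 1 match, so a match is a description of these letters only.

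To determine how the gene was spread over cells, IGFBP5 UMIs were counted in every kept cell. IGFBP5-positive cells made up 10.8% of RES-B (interval 9.91 to 11.8%) and 36.2% of RES-A (1677 of 4629 cells, 34.8 to 37.6%). None was found among 2019 LNCaP cells or among 4565 LNCaP-ENZ48 cells, for which the upper ends of the exact intervals were 0.183% and 0.0808%. Summed over kept cells, the IGFBP5 level was 114 CPM (UMIs per 1e6 UMIs, 111 to 117) in RES-B and 300.1 CPM (296 to 305) in RES-A, against 1 UMI in all of LNCaP and 7 UMIs in LNCaP-ENZ48. The gene was therefore nearly absent from the parental line with and without the drug and present in both resistant lines, where RES-B had the lower level and the lower share of cells.

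Within RES-B the UMIs were held by few cells. IGFBP5-positive cells carried a median of 7 IGFBP5 UMIs (quartiles 4 and 15, highest 113) and 88.9% of all IGFBP5 UMIs of the library. Of these UMIs, the 10 highest cells alone held 13.2% and the 100 highest 53.9%. With every cell thinned to 5000 UMIs, the variance of IGFBP5 was 12.5 times its mean over RES-B cells, whereas the median of this ratio was 1.05 and the highest 6.05 among 1588 genes of 0.5 to 2 times its mean. In RES-A the same ratio was 5.68 at a mean of 1.62 UMIs, and 1 of 561 similar genes exceeded it. The cells did not fall into a gap on either side of the threshold, since 422 cells held 1 UMI, 155 held 2, 94 held 3 and 169 held 10 or more.

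**Figure D1:**
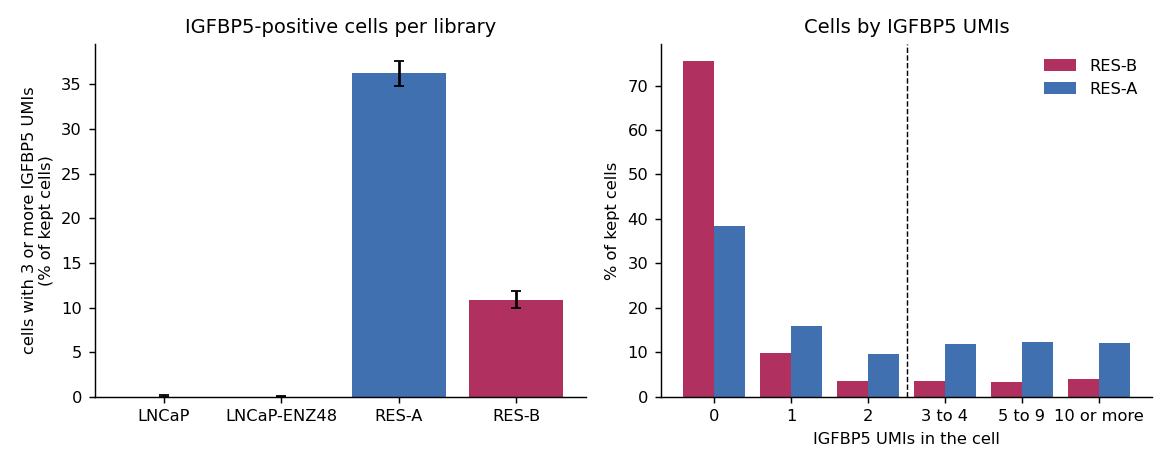
Left, the percentage of kept cells with 3 or more IGFBP5 UMIs in each library (bars, with exact 95% intervals), 10.8 in RES-B, 36.2 in RES-A and 0 in both LNCaP libraries. Right, the percentage of kept cells by IGFBP5 UMIs in RES-B and RES-A, where the dashed line marks the threshold and RES-B has 75.6% of its cells at 0 but 3.99% at 10 or more.

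The count of 0 does not show that a cell lacked the transcript. At the median depth of 12441 UMIs in the comparison cells, 3 UMIs equal 241 CPM, which is above the mean of the library. Depth differed little between the groups, with medians of 12699 UMIs and 3312 genes in IGFBP5-positive cells and 12441 UMIs and 3332 genes in cells with 0. In 4 equal groups of cells ordered from shallow to deep, 10.8, 9.91, 9.63 and 12.9% of the cells were IGFBP5-positive. The median mitochondrial share was 12.3 and 12.2%. Cells with the highest doublet scores (166 of RES-B) made up 6.10% of the IGFBP5-positive cells and 3.22% of those with 0, and their part in the results was not tested beyond leaving them out. The caller Scrublet itself marked 0 cells and so did not give usable calls. The IGFBP5-positive cells shared 1 barcode sequence with RES-A and 0 with the other libraries. RNA free in the droplets can give UMIs to cells that do not express a gene. In RES-B, 24.4% of cells held an IGFBP5 UMI, against 1 of 2019 LNCaP cells and 7 of 4565 LNCaP-ENZ48 cells at median depths of 26502 and 13968 UMIs. RES-B itself held no cell type known to lack IGFBP5, so the part of free RNA at 1 or 2 UMIs was not tested.

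The cells were checked against markers of prostate and other cell types. All 8 luminal markers passed 20 CPM, with a median log2 ratio of -0.06 between IGFBP5-positive cells and cells with 0. KRT18, a luminal keratin, was at 838 CPM in the former and 923 CPM in the latter, and EPCAM, an epithelial adhesion molecule, at 186 and 168 CPM. The 4 basal markers were at 0 in both groups. Among fibroblast and smooth muscle markers, COL1A2 and COL3A1 were at 0 in both groups and the 7 genes summed to 5.60 and 3.48 CPM. The 6 neuroendocrine markers summed to 11.5 and 10.2 CPM, and endothelial and leukocyte markers stayed below 1 CPM. Of the luminal markers, KLK3 alone was past 1.5-fold. The IGFBP5-positive cells thus carried the luminal RNA of the line. They had no UMI of COL1A2 or COL3A1. The sum of the fibroblast and smooth muscle markers was low in both groups and higher by value in the IGFBP5-positive cells.

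To identify genes that went with IGFBP5, UMIs were summed over the IGFBP5-positive cells (6429875 UMIs) and over the cells with 0 (43132840 UMIs), and the ratio of CPM was taken for the 5399 genes at 20 CPM or more in at least 1 of both groups. Ratios are given on the log2 scale, so that 1 is a doubling. Past 1.5-fold, 22 genes (0.407%) were higher in IGFBP5-positive cells and 36 (0.667%) were lower. The median over all tested genes was -0.03. IGFBP5 itself, at 909 CPM against 0 by selection, was left out. A gene can pass the minimum through only the group where it was high, which favours a call in that direction. Differences past 1.5-fold were therefore limited to few genes, and 11 of the 12 highest and the 12 lowest among genes at 50 CPM or more are described with their functions. The 50 CPM could be met in either group. VIM and PAPSS1 met it only in IGFBP5-positive cells, and STEAP1, STEAP2, CDC20, KLK4 and NETO1 only in cells with 0.

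Among the highest were a cancer-testis antigen and a mesenchymal filament. PAGE1, an X-linked gene whose normal expression is largely limited to testis, was at 119.9 CPM (112 to 129) in IGFBP5-positive cells and 61.4 CPM (59.1 to 63.8) in cells with 0, a log2 ratio of 0.97. VIM (vimentin) was at 96.7 CPM (89.3 to 105) and 49.9 CPM (47.8 to 52.1), a ratio of 0.95. At 5000 UMIs a cell, PAGE1 was detected in 31.6% of IGFBP5-positive cells and 16.9% of cells with 0, and VIM in 25.5 and 17.0%. Both genes were thus about 2-fold higher without marking every IGFBP5-positive cell. TSPAN8, a membrane tetraspanin, was at 89.7 and 52.9 CPM (ratio 0.76).

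Metabolic and signaling genes followed. SESN3, a sestrin that restrains mTORC1, was at 146 and 92.2 CPM (0.66). PAPSS1, which makes the sulfate donor of the cell, was at 70.9 and 45.2 CPM (0.65), and the small GTPase RAP2B at 79.6 and 53.1 CPM (0.58). Regulators of transcription and chromatin were SOX4, a transcription factor at 457 and 304 CPM (0.59), ARID5B at 82.7 and 54.2 CPM (0.61), and BARD1, the partner of BRCA1, at 231 and 156 CPM (0.56). TMSB10, a small protein that binds actin monomers, was at 540.0 and 370.4 CPM (0.54). The intervals of these 11 ratios, IGFBP2 (described next) included, lay above 0. BARD1, TMSB10 and RAP2B lay just below 1.5-fold and are not among the 22.

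Genes at lower levels had wider differences, and these were chosen after their values were seen. SCGN, a calcium-binding protein of neuroendocrine and islet cells, was at 21.2 CPM in IGFBP5-positive cells and 4.27 CPM in cells with 0 (2.31, interval 1.98 to 2.64). Its 136 UMIs came from 50 of the 459 cells, and the 5 highest of those held 42.6% of them. SCGB1D2, a secretoglobin, was at 45.9 and 19.9 CPM (1.21) and was spread over 150 cells. ID2, an inhibitor of helix-loop-helix factors, was at 25.4 and 13.1 CPM (0.96). SCGN, SCGB1D2 and ID2 reached the CPM minimum only in the IGFBP5-positive cells.

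**Figure D2:**
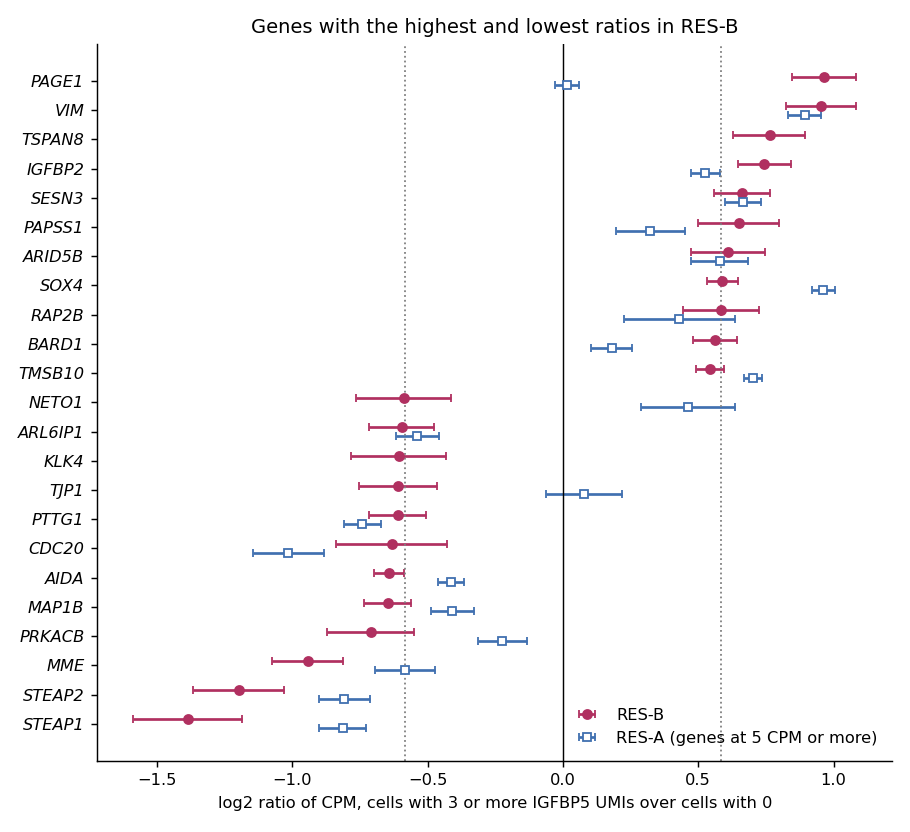
Log2 ratio of CPM, IGFBP5-positive cells over cells with 0 IGFBP5 UMIs, for 11 of the 12 highest and the 12 lowest genes of RES-B, with exact 95% counting intervals (filled, RES-B; open, RES-A where a gene reached 5 CPM there). Dotted lines mark 1.5-fold. The RES-B values run from -1.38 (STEAP1) to 0.97 (PAGE1), and NETO1 lies on the other side of 0 in RES-A.

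The other genes of the IGF system were read against this background. Of 23 genes in the list, 10 reached 5 CPM, 13 stayed at or below 1.37 CPM, and 7 had no UMI in IGFBP5-positive cells. Among ligands, IGF1 was at 7.15 CPM (46 UMIs) and 4.43 CPM (191 UMIs), a ratio of 0.69 (0.19 to 1.16), and IGF2 had 0 UMIs in both groups. The receptor IGF1R had 6 UMIs in all IGFBP5-positive cells together, while the insulin receptor INSR was at 11.4 and 10.8 CPM (0.07) and IGF2R, which clears IGF2, at 29.1 and 29.4 CPM (-0.02). Among the binding proteins, IGFBP2 was at 164 and 97.8 CPM, a ratio of 0.74 (0.65 to 0.84), and it was detected in 52.5 and 37.2% of cells at 5000 UMIs. IGFBP3, the main carrier of IGFs in blood, was at 42.0 and 21.2 CPM (0.99, 0.79 to 1.19). Much of its difference came from few cells, since the 5 IGFBP5-positive cells with most IGFBP3 UMIs held 39.3% of its 270 UMIs. Without those 5, chosen for high values, the ratio was 0.28 (0.03 to 0.52). The cells with 0 were not trimmed in the same way, which lowers this ratio. Within the coarse clusters described below, IGFBP3 was higher in all 6 with at least 25 IGFBP5-positive cells, with 5 intervals off 0. The receptor adaptors GRB10 and SHC1 were at -0.03 and 0.16, and STC2, an inhibitor of the protease that cleaves IGFBPs, at -0.20 (-0.40 to -0.01). Of the 6 list genes at 20 CPM or more, IGFBP2 and IGFBP3 were past 1.5-fold and the median was 0.07. IGFBP5-positive cells thus had more RNA of a second binding protein, IGFBP2, beside levels of the receptors that were low or close to those of the other cells. IGFBP3 was higher too, with much of the difference in few cells.

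Among genes at 50 CPM or more in either group, STEAP1, STEAP2 and MME had the lowest ratios. STEAP1, a prostate antigen of the plasma membrane, was at 33.7 CPM (29.4 to 38.6) in IGFBP5-positive cells and 88.1 CPM (85.3 to 90.9) in cells with 0, a log2 ratio of -1.38 (-1.59 to -1.19). STEAP2, the metalloreductase encoded next to it on chromosome 7, was at 49.0 and 112 CPM (-1.20). At 5000 UMIs, STEAP1 was detected in 13.1% of IGFBP5-positive cells and 31.6% of cells with 0. MME, the cell surface peptidase neprilysin, was at 79.0 and 152 CPM (-0.94), with detection in 21.4 and 44.2% of cells. Read the other way, 5.04% of the 1191 cells with a STEAP1 UMI were IGFBP5-positive, against 13.1% of the 3048 without one, at median depths of 12728 and 12383 UMIs. For MME the shares were 5.68 and 14.4%.

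Other genes of the lowest 12 were intracellular. AIDA, an axin-binding protein, was at 450.2 and 703 CPM (-0.64), the microtubule protein MAP1B at 180 and 282 CPM (-0.65), and PRKACB, a catalytic subunit of protein kinase A, at 55.1 and 90.0 CPM (-0.71). TJP1, a scaffold of tight junctions, was at 65.9 and 100.5 CPM (-0.61), ARL6IP1, a shaping protein of the endoplasmic reticulum, at 97.5 and 147 CPM (-0.60), and NETO1, an auxiliary subunit of neuronal glutamate receptors, at 46.5 and 69.8 CPM (-0.59). CDC20 and PTTG1, which act at anaphase, had ratios of -0.63 and -0.61 over all cells, and of -0.37 and -0.24 among cells called G1. Of the genes below 50 CPM, the actin-bundling gene LCP1, at 20.5 and 49.0 CPM (-1.25), and MAOA, the monoamine oxidase, at 12.9 and 31.2 CPM (-1.27), had the lowest ratios beside the kallikreins and were chosen after their values were seen. MAOA reached 20 CPM only in the cells with 0.

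To determine whether androgen-induced genes differed as a group, the kallikreins and other genes of the list were compared. KLK3 was at 12.8 CPM (10.1 to 15.8) in IGFBP5-positive cells and 33.3 CPM (31.6 to 35.1) in cells with 0, a log2 ratio of -1.39 (-1.72 to -1.06), and 4.36 and 9.80% of cells had a KLK3 UMI at 5000 UMIs. KLK2 was at 12.4 and 25.7 CPM (-1.05) and KLK4 at 44.9 and 68.4 CPM (-0.61). KLK2 and KLK3 are near copies that lie beside each other on chromosome 19, so reads may be split between them and each level is uncertain. STEAP2, described above, is also on the list. The other androgen-induced genes at 20 CPM or more were not lower by 1.5-fold. TMPRSS2, which passed the minimum only through the IGFBP5-positive cells, was at 20.8 and 19.1 CPM (0.13, -0.15 to 0.39). FKBP5 was below the minimum, at 17.9 and 15.3 CPM (0.23, -0.07 to 0.51). PMEPA1 was at 41.5 and 30.8 CPM (0.43) and NDRG1 at 56.3 and 46.9 CPM (0.26). Of the 13 androgen-induced genes at 20 CPM or more, KLK2, KLK3, KLK4 and STEAP2 were lower by 1.5-fold and 0 were higher. KLK2 and KLK3 passed that minimum only through the cells with 0, where they were high. The count of lower genes is thus a description and not support for the list. Over all 5399 tested genes, 0.667% were lower and 0.407% higher. The list had 5 intervals below 0 and 3 above. Its median was -0.04, close to that of all genes, so the lower values were those of single members. Of further genes in the panel, MYC was at 123 and 128 CPM (-0.06), VAV3 at 94.2 and 79.5 CPM (0.25), and CAMK2N1, an inhibitor of the kinase CaMKII, at 506 and 729 CPM (-0.53). CAMK2N1 did not fall steadily with IGFBP5. It was at 399 CPM in cells with 3 to 4 IGFBP5 UMIs and at 655 CPM (623 to 689) in cells with 10 or more.

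The values were then followed over classes of cells with 0, 1, 2, 3 to 4, 5 to 9 and 10 or more IGFBP5 UMIs. PAGE1 was at 61.4, 82.2, 70.3, 112, 112 and 134 CPM, and IGFBP2 at 97.8, 120.0, 137, 141, 153 and 193 CPM. Both were thus highest by value in the cells with most IGFBP5, although the intervals of PAGE1 overlapped among the 3 IGFBP5-positive classes. VIM was at 49.9, 64.2, 104, 102, 99.6 and 89.4 CPM, so that cells with 2 UMIs already stood at the level of the IGFBP5-positive classes. STEAP1 was at 88.1, 61.5, 47.6, 31.3, 44.2 and 27.3 CPM, and MME at 152, 128, 132, 89.9, 74.7 and 73.1 CPM. For STEAP1, cells just outside the threshold (2 UMIs, interval 38.9 to 57.7 CPM) and just inside it (3 to 4 UMIs, 24.1 to 39.8 CPM) had overlapping intervals. KLK3 was at 33.3 and 33.1 CPM in cells with 0 and 1 UMI and at 16.2, 17.3, 13.2 and 8.40 CPM in the further classes. IGFBP3 was at 21.2, 32.9, 33.3, 18.8, 32.0 and 70.5 CPM, highest in the 169 cells with 10 or more IGFBP5 UMIs and without a steady order below them.

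**Figure D3:**
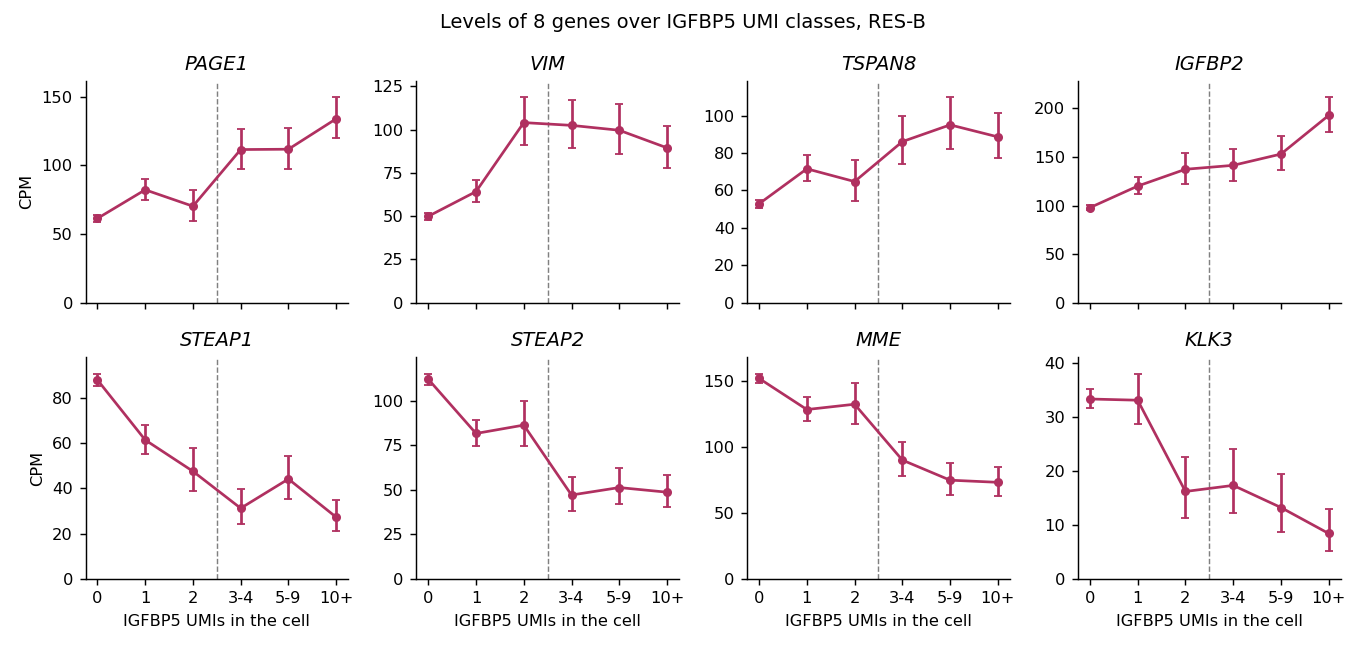
CPM of 8 genes in RES-B cells grouped by IGFBP5 UMIs (points, with exact 95% Poisson intervals; vertical axes start at 0, and the dashed line marks the threshold of 3 UMIs). IGFBP2 runs from 97.8 CPM at 0 UMIs to 193 CPM at 10 or more, and STEAP1 from 88.1 to 27.3 CPM.

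Pathway lists gave smaller differences spread over many genes. For the amino acid stress list, targets of ATF4 that supply amino acids and their transfer RNAs, the median log2 ratio was -0.20 over 22 genes, with intervals below 0 for 16 and above 0 for 0. ATF3 was at 21.3 and 32.0 CPM (-0.59), the cystine transporter SLC7A11 at 53.8 and 71.8 CPM (-0.42), TRIB3 at 76.4 and 99.3 CPM (-0.38), DDIT3 at 100.3 and 129 CPM (-0.36), and ATF4 itself at 289 and 331 CPM (-0.20). Of these, ATF3 alone was past 1.5-fold. In the unfolded protein list the median was -0.06 over 19 genes, closer to that of all genes. Glycolysis and hypoxia genes had a median of -0.11 over 17, with 12 intervals below 0 and 1 above, and LDHA was at 401 and 489 CPM (-0.29). The stress cytokine GDF15, of the matrix and secreted list, was at 215 and 312 CPM (-0.54). That list had a median of -0.05 over 7 genes, close to that of all genes, with 3 intervals below 0 and 1 above.

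Among lists with higher values, 6 TGF-beta target genes had a median of 0.30, with 3 intervals above 0 and 0 below. PMEPA1 (0.43) and ID3 (0.40, at 82.3 and 62.2 CPM) were among the 3. The third was ID2, which passed the 20 CPM minimum only through the IGFBP5-positive cells, so the median and the count are not support for the list. The 41 ribosomal protein genes had a median of 0.05 with 34 intervals above 0, and none was past 1.5-fold. Luminal factors had a median of -0.01, with HOXB13 at 78.7 and 94.7 CPM (-0.27) and ELF3 at 90.8 and 72.0 CPM (0.33). In the epithelial and mesenchymal list, VIM was past 1.5-fold while CDH1, the epithelial cadherin, was at 135 and 128 CPM (0.07) and the median was -0.04, so vimentin was not accompanied by lower E-cadherin RNA. This holds for CDH1 only. The list had 2 intervals above 0 and 3 below, and TJP1, a tight junction gene outside it, was lower (-0.61). Against these values, 462 of all 5399 genes had an interval above 0 and 871 below.

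**Figure D4:**
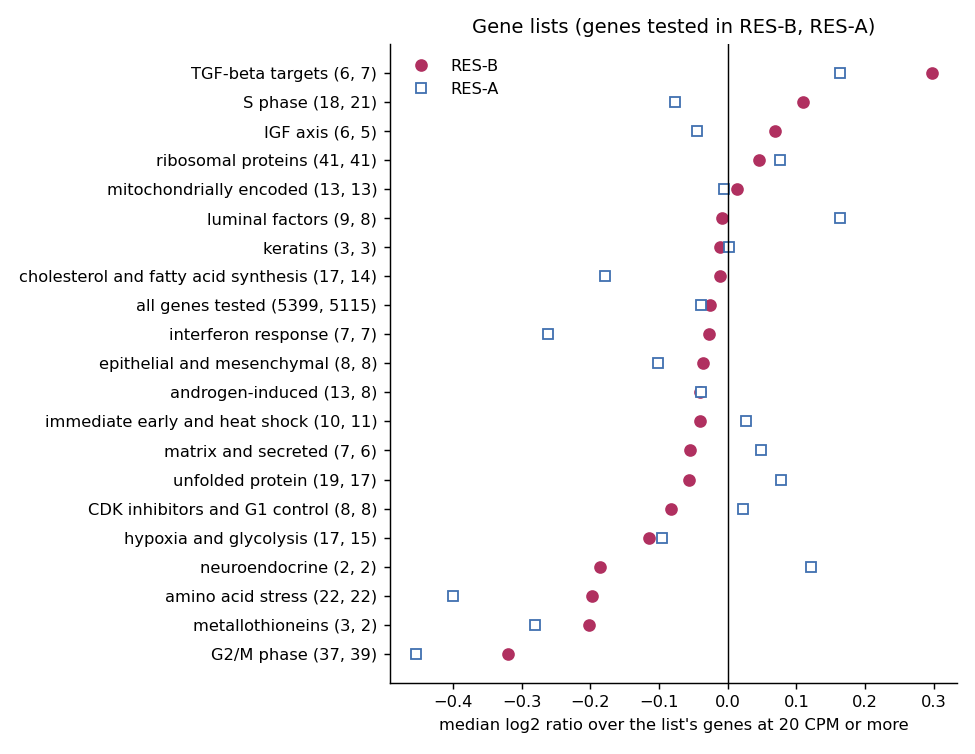
Median log2 ratio, IGFBP5-positive cells over cells with 0, over the genes of each list at 20 CPM or more (filled, RES-B; open, RES-A; genes tested in each in brackets). In RES-B the medians run from -0.32 (G2/M phase) to 0.30 (TGF-beta targets), with all genes at -0.03.

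Cell cycle differed with IGFBP5. At 5000 UMIs a cell, 11.5% of IGFBP5-positive cells (8.77 to 14.8%) and 18.4% of cells with 0 (17.0 to 19.7%) were called G2/M, while 12.2% (9.35 to 15.5%) and 7.52% (6.63 to 8.49%) were called S. Put by phase, 7.22% of the 734 G2/M cells, 16.1% of the 347 S cells and 11.1% of the 3158 G1 cells were IGFBP5-positive. These cells were chosen at full depth, and only the phase calls were thinned. After depth weighting, 8.03% of the cells with 0 were called S and 19.7% G2/M. The coarse cluster led by HIST1H1B and CLSPN (55.1% S, median 16582 UMIs) had 13.9% IGFBP5-positive cells, and 8.59% with cells chosen at 5000 UMIs. That choice gave 363 cells in place of 459. The 37 tested G2/M genes had a median log2 ratio of -0.32, with 32 intervals below 0 and 7 genes past 1.5-fold, and the median was -0.0040 among cells called G1. The 18 S phase genes had a median of 0.11. After depth weighting it was 0.04, and that of the G2/M genes was -0.45. Without the phase difference, in the 350 IGFBP5-positive and 2374 other cells called G1, 30 genes were higher and 26 lower by 1.5-fold, and STEAP1 (-1.57), MME (-1.13), VIM (1.02) and PAGE1 (1.02) had ratios at least as far from 0 as over all cells.

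Cells were also clustered without IGFBP5, to see where the IGFBP5-positive cells lay. In 8 clusters they made up between 5.86 and 14.2% of every cluster of 50 cells or more. The lowest share was in a mitotic cluster led by PLK1 and CDC20 (27 of 461 cells) and the next lowest, 6.15%, in a cluster led by MAOA, IGFBP3 and UGT2B15 (27 of 439 cells). The 38 cells of a cluster led by PRAMEF genes held 0, with an exact interval up to 9.25%. With a finer division, 1 cluster of 178 cells led by VIM, SESN3, TUBA1A and GSTA1 had 56 IGFBP5-positive cells, or 31.5% (24.7 to 38.8%), at a median of 11151 UMIs. It held 12.2% of all IGFBP5-positive cells, and the other 403 were spread over 8 of the remaining clusters.

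Since VIM and SESN3 led that cluster, the ratios were taken again outside it, an alternative chosen after the data were seen. VIM was then at 71.6 and 46.7 CPM (0.62) and SESN3 at 119.8 and 85.5 CPM (0.49), while PAGE1 (1.00), IGFBP2 (0.73), STEAP1 (-1.34), MME (-0.86) and KLK3 (-1.33) differed little from their values over all cells. Within the 6 coarse clusters with at least 25 IGFBP5-positive cells, IGFBP2, SOX4, TMSB10, STEAP1, STEAP2 and MAP1B had the same direction and an interval off 0 in all 6. PAGE1 was higher in 5 of them, with 4 intervals off 0. In the cluster led by MAOA and IGFBP3 it had 0 UMIs in 27 IGFBP5-positive cells and 23.5 CPM in the 336 with 0 IGFBP5 UMIs.

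**Figure D5:**
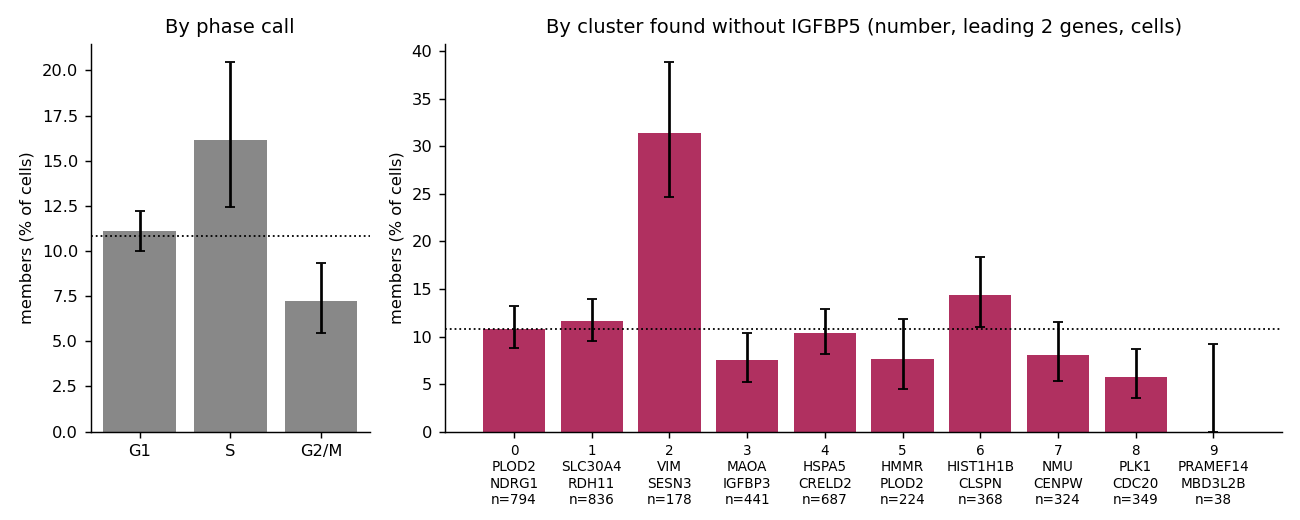
Percentage of RES-B cells that were IGFBP5-positive, by phase call at 5000 UMIs (left) and by cluster found without IGFBP5 at the finer division (right; leading genes and cell numbers under the bars), with exact 95% intervals. The dotted line is the 10.8% of all kept cells, and the cluster led by VIM and SESN3 stands at 31.5%.

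RES-A, the other resistant line, allowed the same ratios in cells that the rule had not used, 1677 with 3 or more IGFBP5 UMIs against 1773 with 0. There, 21 of 5115 genes (0.411%) were higher and 29 (0.567%) lower by 1.5-fold. Of the 4821 genes tested in both lines, 11 were higher in RES-B and 14 in RES-A, and 5 were higher in both (45.5% and 35.7% of the lists), among them MEX3A, SOX4, SESN3 and VIM. Lower in both were 11 genes, or 40.7% of 27 and 42.3% of 26, among them STEAP1 and STEAP2, the mitotic genes CDC20, CCNB1, PTTG1 and ASPM, and ATF3. STEAP1 was at 76.9 and 135 CPM in RES-A (-0.81), MME at 50.4 and 75.6 CPM (-0.58), VIM at 282 and 152 CPM (0.89), SOX4 at 558 and 286 CPM (0.96) and IGFBP2 at 299 and 207 CPM (0.53). All 11 genes that were higher in RES-B and 25 of the 27 that were lower had the same sign in RES-A, where 37.0% and 63.0% of all genes had that sign. Some of these genes passed the CPM minimum through 1 group of cells only. MEX3A and ID2 did so through the IGFBP5-positive cells of both lines (MEX3A at 32.2 and 19.7 CPM in RES-B, 26.4 and 14.5 CPM in RES-A). The counts shared by both lines are thus descriptions and not support. Amino acid stress genes had a median of -0.40 in RES-A, with 21 of 22 intervals below 0, against 1352 of all 5115 genes, and ATF3 had a ratio of -0.62.

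Other RES-B differences were not seen in RES-A. PAGE1 was at 363 and 359.5 CPM there (0.02, -0.03 to 0.06), so it was high in both groups of cells. TJP1 was at 0.08, and NETO1 had the opposite direction, at 29.6 and 21.5 CPM (0.46). IGFBP3 was below the minimum in RES-A, at 6.89 and 12.1 CPM (-0.81, -1.11 to -0.52). KLK2, KLK3 and KLK4 stayed below 1 CPM in RES-A, so the lower kallikreins of IGFBP5-positive cells could not be compared. TSPAN8 was also near absent, at 1.23 and 0.35 CPM. The differences between the lines were not tested.

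The levels in the whole libraries place these genes. VIM was at 1.98 CPM in LNCaP, 2.22 CPM in LNCaP-ENZ48, 58.6 CPM in RES-B and 211 CPM in RES-A, and PAGE1 at 12.7, 11.6, 70.4 and 360.3 CPM. Both were, like IGFBP5, low in the parental cells and higher in RES-A than in RES-B. STEAP1 was at 213, 220.3, 77.8 and 107 CPM and STEAP2 at 270.0, 276, 101 and 92.9 CPM in the same order, so the IGFBP5-positive cells of RES-B (33.7 and 49.0 CPM) stood further below the parental level than the rest of their library. KLK3 was at 733, 93.8, 30.4 and 0.034 CPM. MME was at 142, 253, 140.5 and 63.2 CPM, so it was below the parental level in RES-A and close to it in RES-B. IGFBP2 was at 161, 149, 109 and 249 CPM.

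Finally, the place of IGFBP5 in the genome was considered, at chromosome 2, 216672105 to 216695549, on the minus strand (GENCODE 44 on GRCh38). IGFBP2 lies 7668 bases from it on the plus strand (216632828 to 216664436), so that the 3' ends of both genes face each other, and BARD1, also among the 12 highest, lies on the same arm (214725646 to 214809683). The 50 tested genes around IGFBP5 had a median log2 ratio of 0.06, against -0.03 for all genes, with 11 intervals above 0, 4 below, and IGFBP2 past 1.5-fold. In RES-A their median was -0.02. RPL37A and XRCC5, the tested genes on the far side of IGFBP2, were at 0.09 and 0.13. By chromosome, medians in RES-B lay between -0.07 (chromosome 15) and 0.03 (chromosome 21).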

How the data were processed

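The authors made the deposited counts (whole UMIs per gene and barcode) from Chromium Single Cell 3' v3 libraries with Cell Ranger 3.0.2 and its GRCh38 reference, per the labels, the paper's methods and the file headers. Each matrix lists 33538 genes, of which 33113 were found by ID in GENCODE 44. Here, counts were summed over cells and scaled to CPM. Levels have exact Poisson intervals, shares exact binomial (Clopper-Pearson) intervals, and ratios exact conditional binomial intervals, which treat UMIs as independent. Cells of a single library are not replicates, and no test was run. The kept cells held 57709230 UMIs in RES-B and between 55696198 and 68158371 in the others. No upper limits on genes or UMIs were set, and doublets were kept. Phases used Seurat's lists in scanpy 1.11.5, after thinning every cell to 5000 UMIs. Clusters came from Leiden (igraph 0.11.9) at resolution 0.5, and 1.0 as the finer division, on 2000 variable genes, 30 components and 15 neighbours, without IGFBP5.

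The members, gene lists and comparisons were chosen with earlier results of these data known. Named genes were the 12 highest and 12 lowest ratios in RES-B among 875 genes at 50 CPM or more in either group, with an interval off 0 and the same sign under 4 alternatives, plus the IGF genes at 5 CPM or more and a panel (KLK2, KLK3, KLK4, TMPRSS2, FKBP5, MYC, TSPAN8, VAV3 and CAMK2N1 among them), of which some genes are not reported here. Alternatives changed depth weighting, selection, cell limits, phase, doublets, scaling (edgeR 4.0.16 TMM, DESeq2 1.42.0 size factors) and the CPM minimum. Tested on simulated data for RES-B, with 200 of 5362 genes changed 2-fold, the ratios called 100% of the changed and 0 of the unchanged genes. The simulated sums were independent Poisson counts without unevenness between cells, and only genes at 50 CPM or more were changed. This checks the calculation only. It cannot show how calls behave at lower levels or for genes whose UMIs few cells hold.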

Additional observations from a re-analysis of the deposited data

Results flagged for a closer look

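NETO1, an auxiliary subunit of neuronal glutamate receptors, had opposite directions in the 2 resistant lines. Its log2 ratio, IGFBP5-positive cells over cells with 0 IGFBP5 UMIs, was -0.59 in RES-B and 0.46 in RES-A, with counting intervals off 0 in both. The difference between the lines was not tested. It was the only gene past 1.5-fold in RES-B with an opposite ratio whose interval was off 0 in RES-A, among the 4821 genes tested in both.

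Barcodes outside the comparisons also held the gene. Of the 668 RES-B barcodes left out by the cell limits, 4.04% (27, exact binomial interval 2.68 to 5.83%) had 3 or more IGFBP5 UMIs, and their summed level was 136 CPM (122 to 151). Their median mitochondrial share was 51.1% and their median depth 2841 UMIs. In LNCaP, 0 of 339 left-out barcodes held an IGFBP5 UMI.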

How the results depend on the processing

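With 1 library per group, nothing here measures variation between cultures. No paired analysis was possible because each group has a single sample and no test was run. The number of genes past 1.5-fold depended on the threshold and the minimum level. Against 22 higher and 36 lower of 5399 genes, cells with 5 or more IGFBP5 UMIs gave 34 higher (and 49 lower) of 5440. Cells with 1 or more gave 7 and 5 of 5362. The minimum level also changed the number of genes tested. A minimum of 5 CPM gave 99 and 120 of 9783 genes, a minimum of 50 CPM gave 9 and 15 of 2615, and no minimum gave 2129 and 1039 of 16615. The median of the G2/M list was -0.0040 in cells called G1. That of the IGF list was 0.74 at a minimum of 50 CPM, where IGFBP2 alone was left, so this is the IGFBP2 ratio and not a value of the list. Among cells with 0 UMIs, G1 was 72.3% after depth weighting and S was 5.87% with unthinned counts. At resolution 1.0 the highest share in a cluster was 31.5%, which was 23.03% with cells chosen at 5000 UMIs. At resolution 0.5, choosing cells at 5000 UMIs changed the highest share from 14.2 to 11.7% and the lowest from 5.86 to 3.19%. The lowest share then lay in another cluster. The mitotic cluster went from 5.86 to 3.47%, and the 3.19% was in the cluster led by MAOA and IGFBP3. TMM and DESeq2 factors were between 0.994 and 1.006, and no scaling moved the median of all genes by 0.1. Of 462 alternative values for 42 named genes, 0 changed sign past counting error. The highest and lowest genes among them were named only if their sign held under some of these alternatives. For those genes the absence of a sign change was thus partly set by the choice and is not support. Of the 462 values, 407 stayed within the counting interval and 55 left it, of which 26 came from the lower threshold of 1 UMI.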

Other observations

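UGT2B15, which glucuronidates androgens and has near copies that can share its reads, was at 40.9 CPM in IGFBP5-positive cells of RES-B and 22.0 CPM in cells with 0 (log2 ratio 0.89), although IGFBP5-positive cells were few in the cluster it led. MEX3A, an RNA-binding protein, was at 32.2 and 19.7 CPM (0.71), and had a ratio of 0.87 in RES-A. ADAMTS1, a secreted matrix protease, was at 28.3 and 17.1 CPM (0.72), and RHOBTB3 at 26.1 and 14.1 CPM (0.89). In RES-A both were under 20 CPM, at 10.0 and 2.95 CPM for ADAMTS1 (1.76) and 14.4 and 4.67 CPM for RHOBTB3 (1.63). SCGN was near absent there, at 1.23 and 0.18 CPM. These genes were chosen after their values were seen. In RES-B, all but UGT2B15 reached 20 CPM only in the IGFBP5-positive cells.

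By depth, the IGFBP5 level was 172 CPM in the shallowest of 4 equal groups of RES-B cells and 106, 113 and 94.8 CPM in the deeper ones. Along the chromosomes, the highest and lowest medians over 4825 windows of 25 tested genes were 0.08 and -0.15, a description chosen after the data were seen. The second highest window, also at 0.08, ended at IGFBP2.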
